A study of Mus musculus with 24 samples.

Results

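Shallow whole genome sequencing of 8 murine neuroblastoma tumours driven by IGF2BP1 alone (TI) was compared with that of 5 adrenal glands from mice carrying a MYCN transgene (AGM). The members were chosen by their sample descriptions, and these 13 samples are part of 24 labelled mouse samples, of which 21 have copy number values. TI animals were CRE-positive and carried an IGF2BP1 transgene, labelled IGF2BP1 +/- in TI 1 and IGF2BP1 +/+ in the other 7 tumours. AGM animals were CRE-positive with the genotype MYCN fl/wt, and their labels name no IGF2BP1 transgene. Per the study's text each tumour came from its own mouse, the AGM mice were culled at about a year, and the IGF2BP1 transgene lacks its 3′UTR. Both transgenes sit at the Rosa26 locus behind a stop cassette, and a Dbh-driven iCRE removes this stop in adrenal glands and peripheral sympathetic nerves of both groups. TI 6 is labelled as an adrenal gland tumour, whereas the other TI tumours carry no adrenal label. The study's supplement gives the adrenal tumour to a mouse with another number, so that the site of these tumours rests on the labels alone. The compared tissues therefore differ in transgene, in site for 7 of 8 tumours, and in being tumour or gland. Age differs as well, since per the study's text homozygous IGF2BP1 mice were culled younger than the AGM mice. Values are log2 ratios of copy number segments to wildtype adrenal glands of 3 CRE-negative animals (AG), which have no values of their own here.

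IGF2BP1 is an RNA-binding protein of fetal tissues that stabilises its target mRNAs, and MYCN is the transcription factor whose amplification marks high-risk neuroblastoma. Human neuroblastoma arises from sympathoadrenal precursors and is known for recurrent segmental changes: gain of 17q, 2p and 1q, and loss of 1p and 11q. In the mouse, most genes of human 17q lie on distal Chr 11, those around MYCN on proximal Chr 12, ALK on Chr 17, the genes of 1p36 on distal Chr 4, and those of 11q mainly on proximal Chr 9. Mouse autosomes have their centromere at the start, so that proximal and distal are used here in place of short and long arms.

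A segment counted as gained at a log2 ratio of at least 0.3 and as lost at a ratio of at most -0.4. Segments that passed neither limit but deviated from 0 by at least 0.1 are called partial shifts. A ratio of 0 stands for 2 copies. In DNA of bulk tissue, a small change in all cells and a larger change in a part of the cells cannot be told apart.

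The title prefix SH marks TI 1 to 7 and the AG reference, and AGH marks TI 8 and all 5 AGM glands. The labels do not explain these prefixes, so that prefix and group cannot be told apart for 7 of 8 tumours. AGM glands were flat at the scale of chromosomes, with autosome means between 0.0022 and 0.023 on the log2 scale. They held 20 gained and 48 lost regions, all under 1 Mb. Of 9 short regions called in every AGM gland, TI 8 shared 8, and TI 1 to 7 shared between 2 and 5. Counting only regions of at least 1 Mb, which leaves no AGM gain or loss, the median differences were 180 Mb gained (adjusted p = 0.00311), 23 Mb lost (adjusted p = 0.0104) and 407 Mb partially shifted (adjusted p = 0.00311) in the exact permutation test.

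Far more sequence was gained in TI tumours than in AGM glands. Gained sequence was 132, 166, 376, 183, 228, 2.14, 254 and 181 Mb in TI 1 to 8. It was 1.82, 1.04, 1.02, 1.08 and 1.36 Mb in AGM 1 to 5. Every tumour lay above every gland, although TI 6 did so by little. The tumours averaged 190 ± 107 Mb (SD, n = 8) and the glands 1.26 ± 0.34 Mb (SD, n = 5), and the exact permutation test of the rank sum gave an adjusted p of 0.00311. Of all sequence gained in TI, 98.1% lay in regions of at least 10 Mb.

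Lost sequence separated the groups less well. TI 1 to 8 lost 9.76, 2.32, 45.4, 20.1, 4.76, 69.6, 78.8 and 29.6 Mb, and AGM glands between 2.14 and 5.02 Mb. TI 2 and TI 5 therefore lay within the range of the glands. The tumour was higher in 35 of 40 pairs (exact permutation test, two-sided, adjusted p = 0.0295), with means of 32.5 ± 29.4 Mb (SD, n = 8) and 3.2 ± 1.13 Mb (SD, n = 5). The median difference of 22.1 Mb became 69.3 Mb with the mean column in place of the median column of the segments, and 81.1 Mb with limits of 0.2 and -0.2, both still called. Without AGM 1 the adjusted p was 0.0727, and without AGM 5 it was 0.0545 for both lost sequence and breakpoints.

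Partial shifts took up more of the genome than gains and losses together in 6 tumours, and less in TI 2 and TI 8. They covered 385, 14.5, 583, 452, 608, 203, 429 and 41.9 Mb in TI 1 to 8, and at most 1.02 Mb in any AGM gland. The median difference was 406 Mb, and it was 627 Mb with the mean column and 161 Mb with limits of 0.2 and -0.2. No value of the groups overlapped (exact permutation test, two-sided, adjusted p = 0.00311). The direction differed between tumours. Shifts in TI 7 were all downward with 429 Mb, and those in TI 5 nearly all upward with 590 Mb, while TI 3 held 218 Mb upward and 365 Mb downward. Breakpoints, counted where neighbouring segments differed by at least 0.1, numbered 27 to 68 per tumour and 25 to 36 per gland (35 of 40 pairs, exact permutation test, adjusted p = 0.029). The counts include steps at chromosome ends, where the outermost segment could be at 0. A change over a whole chromosome thus added breakpoints without a break inside it, and these were not counted apart. With a step of 0.3 the medians differed by 2 breakpoints with an adjusted p of 0.915 (exact permutation test), so that the total count showed no excess there. This total also holds the edges of short regions, which the glands carried as well. Between segments of at least 1 Mb, TI did hold large steps, such as 0.954 in TI 2 on Chr 11, and AGM held 2 breakpoints in all.

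**Figure D1:**
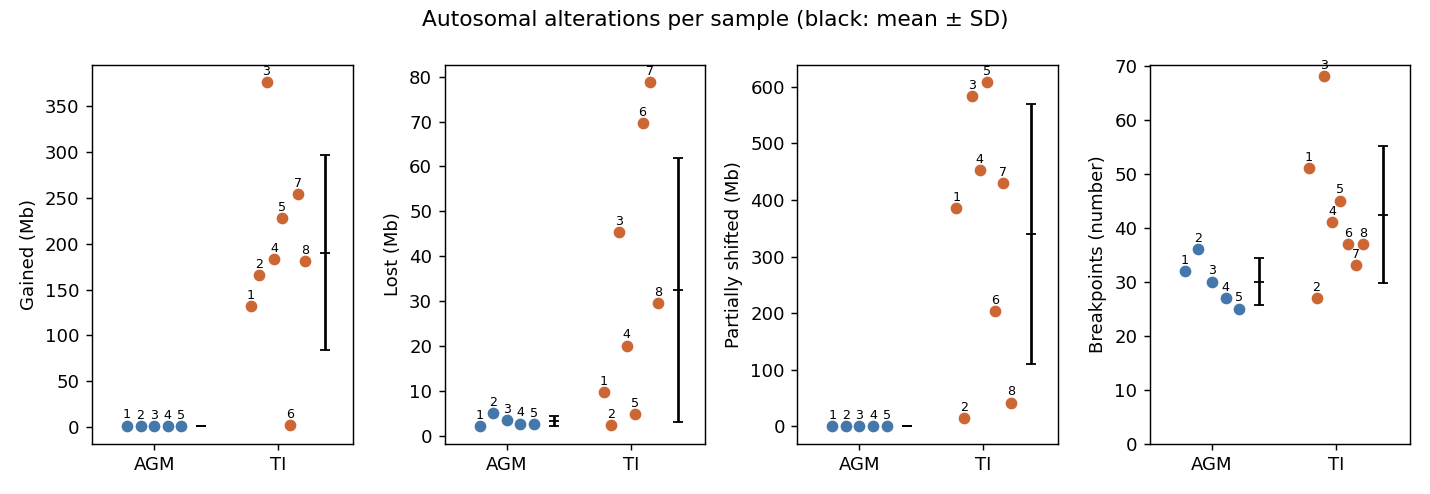
Gained, lost and partially shifted autosomal sequence in Mb and the number of breakpoints for each AGM gland and each TI tumour; numbers beside the points are replicates and black marks are mean ± SD. All 5 AGM glands sit at or below 1.82 Mb gained, and TI 6 with 2.14 Mb is the tumour nearest to them.

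The autosomes were then compared in windows of 1 Mb. Of 2472 windows, 154 were higher in TI (6.23%) and 1 was lower (0.0405%), at an adjusted p under 0.05 with medians at least 0.1 apart. The higher windows made up 117 of the 121 windows of Chr 12 and 35 of the 122 windows of Chr 11. The other two were a window on Chr 5 and a window on Chr 14 that held short losses present in AGM. All these windows had an adjusted p of 0.00805 in the exact permutation test. No gland held a region of 10 Mb or more, whereas the tumours held 23 such gains in 7 tumours and 9 such losses in 5 tumours. Of the gains, 6 spanned a whole chromosome, 10 were distal, 2 proximal and 5 internal, and 4 of the losses were distal.

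**Figure D2:**
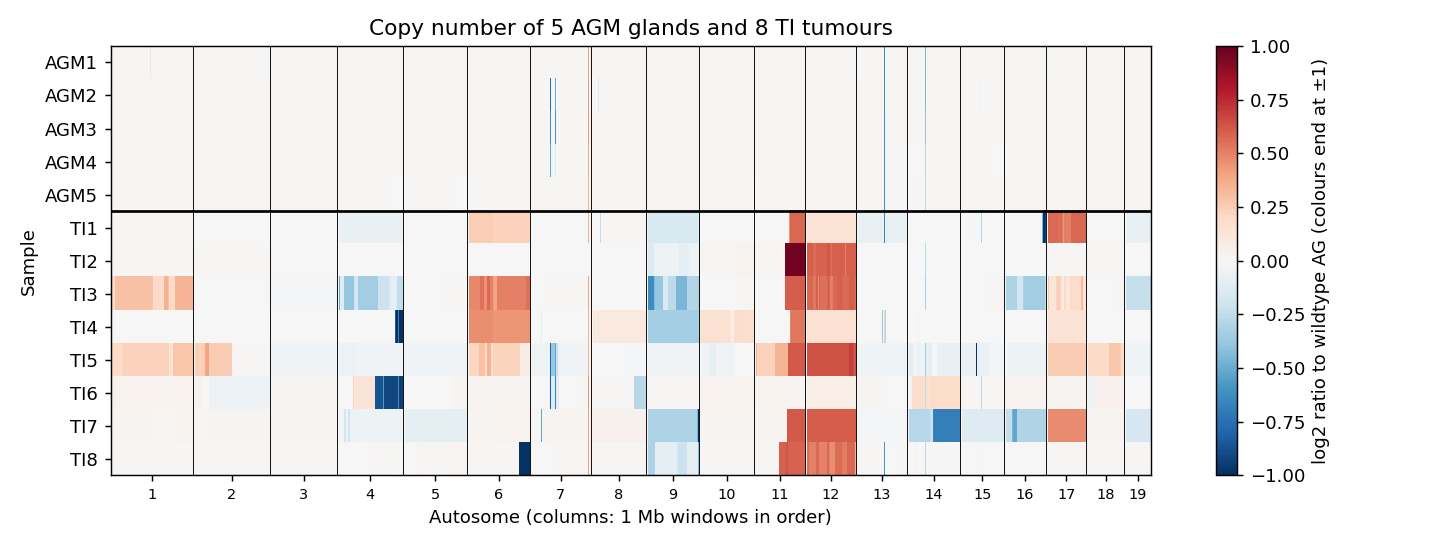
Log2 ratio to wildtype AG (colour, red for higher and blue for lower) in windows of 1 Mb along the 19 autosomes for 5 AGM glands and 8 TI tumours; 1 window is left blank. AGM rows are pale throughout apart from thin lines, whereas 7 TI rows hold a red distal block on Chr 11 and 5 hold a dark red Chr 12.

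Distal Chr 11, the counterpart of human 17q, was gained in 7 of 8 tumours. At Igf2bp1 (chr11:95847989-95896911, GRCm39, minus strand) the log2 ratio was 0.57, 0.96, 0.60, 0.53, 0.61, 0.028, 0.62 and 0.59 in TI 1 to 8. All AGM glands were between 0.00925 and 0.0145. TI 6 was the only tumour without the gain, and its value was above all glands by a small margin. Such margins were not particular to Chr 11: the means of Chr 3 (0.0253) and Chr 18 (0.0233) in TI 6 were also above all glands. Those of Chr 2 (-0.0395) and Chr 5 (0.00206) were below. The rank test counts this margin like a full gain. TI 6 held a loss of 0.18 Mb at -0.93 before the gene (chr11:87220001-87400000). The medians differed by 0.58 (exact permutation test, adjusted p over 20621 genes = 0.0099). These ratios stand for about 3 copies in 6 tumours and 3.9 copies in TI 2.

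The gains ended at the distal end of the chromosome in all 7 tumours but began at different places. Ordered from proximal to distal, the gain began at 49.82 Mb in TI 5, 58.28 Mb in TI 8, 71.94 Mb in TI 3, 73.30 Mb in TI 2, 77.96 Mb in TI 7, 83.22 Mb in TI 1 and 86.10 Mb in TI 4. The gained regions were thus 35.8 to 72.1 Mb long and held between 672 and 1328 protein-coding genes. Their common part, chr11:86100001-121800000, spanned 35.7 Mb with 672 protein-coding genes. It began 9.75 Mb before Igf2bp1. In TI 5 the rise came in steps, from 0.23 to 0.34 at 49.82 Mb and to 0.61 at 79.30 Mb within Nf1, the gene of the RAS inhibitor neurofibromin. In TI 4 the boundary lay within 20 kb of Brip1, which encodes a helicase partner of BRCA1, and in TI 1 within 20 kb of Ap2b1, an adaptor subunit of clathrin coats.

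The listed 17q genes followed these boundaries. Of 14 genes, 12 were higher in TI beside 1310 (6.35%) of all 20621 protein-coding genes, and none was lower beside 2 (0.0097%). All 14 were gained in at least 5 tumours beside 6.94% of all genes. Of the 1618 protein-coding genes of Chr 11, 670 were called higher and 794 were gained in at least 5 tumours. The median difference of the listed 17q genes was 0.58 on the log2 scale, beside -0.0052 over all genes. Birc5, which encodes the apoptosis inhibitor survivin, and Top2a, the DNA topoisomerase of dividing cells, shared the segment and thus the values of Igf2bp1 in every sample. Nf1 and the phosphatase gene Ppm1d lay before some boundaries and were gained in 5 and 6 tumours, with adjusted p of 0.238 and 0.0616 in the exact permutation test. Genes of human 17p lie further proximal on Chr 11. The tumour suppressor gene Trp53 was gained only in TI 5 (0.34) and TI 8 (0.59), and in the other 6 tumours it was between 0.0042 and 0.037. None of the 4 listed 17p genes passed the test.

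**Figure D3:**
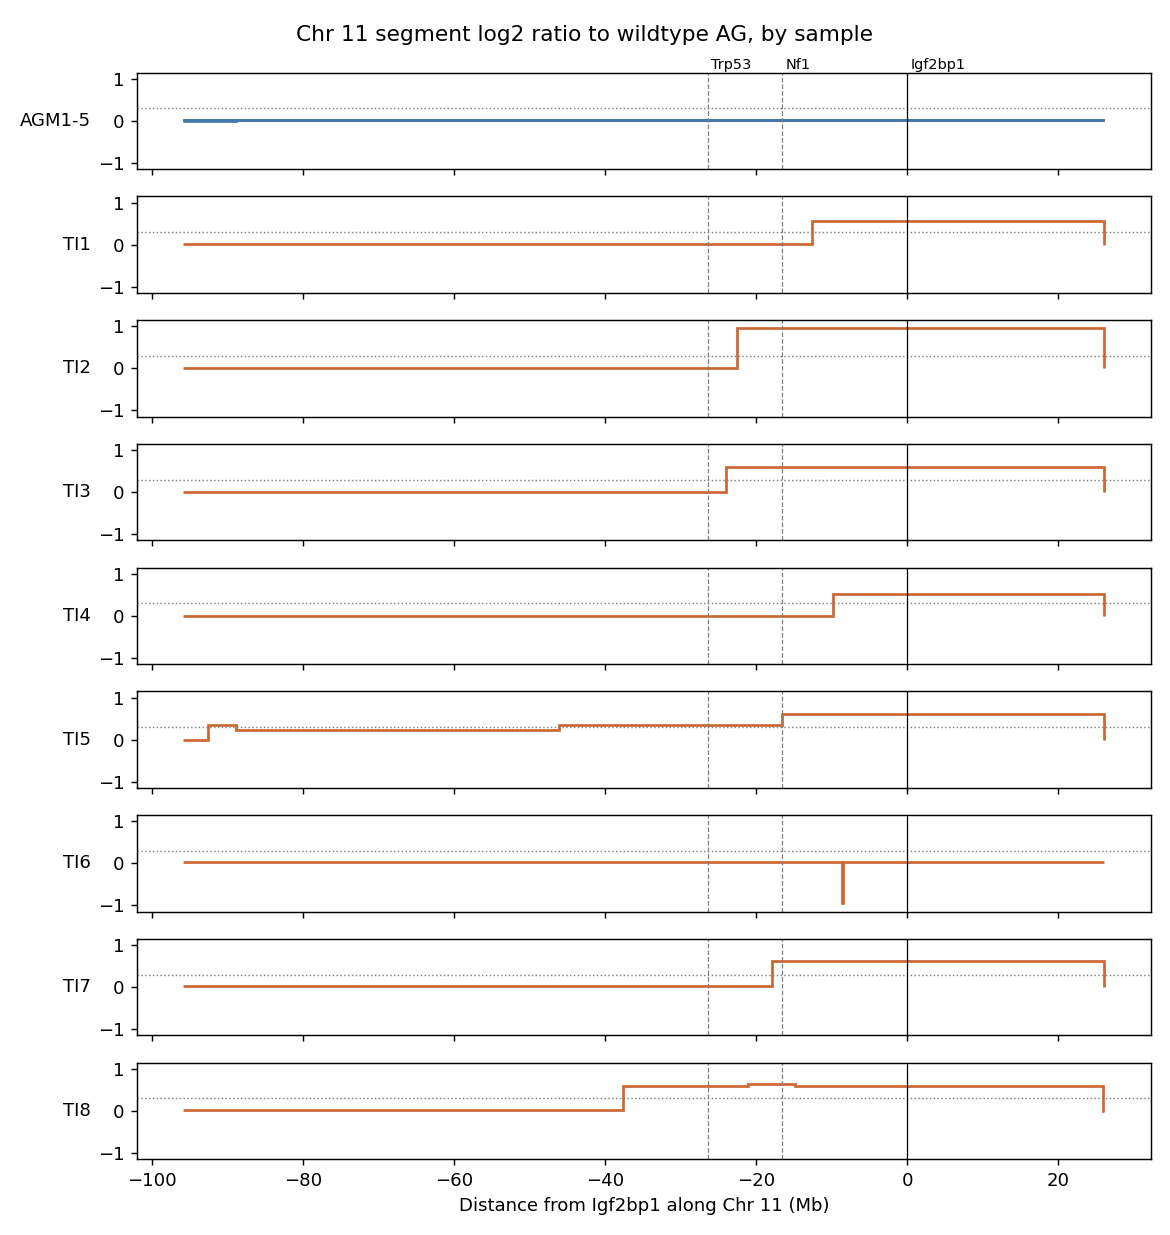
Segment log2 ratio to wildtype AG along Chr 11, by distance from Igf2bp1 in Mb, for the 5 AGM glands together and each TI tumour; the dotted line marks 0.3 and dashed lines mark Trp53 and Nf1. The step upward lies before Igf2bp1 at 7 different places in 7 tumours, and TI 6 returns to its former level after a short loss of 0.18 Mb.

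Chr 12, which carries Mycn, was gained over nearly its whole length in TI 2, 3, 5, 7 and 8. The chromosome means of these 5 tumours were 0.57 ± 0.042 (SD, n = 5), close to 3 copies. TI 1 and TI 4 held partial upward shifts over 97.5% and 97.4% of Chr 12, with means of 0.14 and 0.15. TI 6 was at 0.062, and the glands were between 0.012 and 0.015. As a result every tumour lay above every gland, and the whole autosome was higher in TI (median difference 0.52, exact permutation test, adjusted p over 19 autosomes = 0.00492).

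Mycn (chr12:12986076-12992915) had log2 ratios of 0.14, 0.60, 0.58, 0.15, 0.64, 0.064, 0.60 and 0.50 in TI 1 to 8. It was gained in 5 tumours and partially shifted in TI 1 and TI 4, with an adjusted p of 0.0099 in the exact permutation test. No tumour held a step at Mycn itself, and the highest value stands for 3.11 copies. Odc1, the rate-limiting enzyme of polyamine synthesis, lay in the same segments. All 11 listed 2p genes of Chr 12 were higher in TI (6.35% of all genes), and all 11 were gained in 5 tumours (6.94% of all genes). On Chr 12 itself, 639 of 639 protein-coding genes were called higher and 636 were gained in at least 5 tumours. The list thus follows the whole chromosome and does not stand out within it. With a difference of means in place of ranks, 0 of these 11 genes were called (Mycn adjusted p = 0.0623, exact permutation test), whereas 12 of the 14 genes of 17q were. Chr 12 as a whole was still called in this exact permutation test (adjusted p = 0.0369). The gained part common to these tumours spanned 112 Mb with 624 protein-coding genes, followed by a further 3.08 Mb.

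The other counterparts of 2p behaved differently. Alk, which encodes a receptor tyrosine kinase mutated in familial neuroblastoma, lies on Chr 17 (chr17:72174200-72911622). Its ratio was 0.58 in TI 1 and 0.48 in TI 7, which carried a gain over nearly all of Chr 17. It was 0.18, 0.14 and 0.26 in TI 3, 4 and 5, where Chr 17 was partially shifted, and between 0.0088 and 0.030 in TI 2, 6 and 8. Alk was higher in 35 of 40 pairs but did not pass the test (median difference 0.15, exact permutation test, adjusted p = 0.0616), and none of the 4 listed 2p genes on Chr 17 did, beside 6.35% of all genes. Without TI 2, 88 of 96 windows of Chr 17 were called higher. Xpo1, the nuclear export receptor, lies on proximal Chr 11 outside the 17q counterpart and was partially shifted only in TI 5 (0.23).

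Chr 6 was gained over its whole length in TI 3, with a log2 ratio of 0.51 over 146 Mb, and over 97.7% in TI 4, in regions of 57.5 and 88.6 Mb. TI 1 held a partial shift over 97.6% of it. In TI 5 the chromosome was partially shifted with gained stretches of 13.6 and 10.6 Mb. TI 8 went the other way, with a loss of the distal 26.8 Mb (chr6:122660001-149500000) at -0.99. Its boundary lay within 20 kb of Nanog, a transcription factor gene of pluripotent cells. The Rosa26 locus that holds the transgene (Gt(ROSA)26Sor, chr6:113043843-113055336, chosen after its values were seen) had ratios of 0.51 in TI 3, 0.44 in TI 4, 0.23 in TI 1 and 0.22 in TI 5. In the other 4 tumours it was between 0.005 and 0.035, and in AGM between 0.015 and 0.016.

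The 1q counterpart on Chr 1 was raised in TI 3 and TI 5. In TI 3 Chr 1 held gains of 10.9 and 43.3 Mb, with the p53 inhibitor gene Mdm4 at 0.35 and Cenpf, a kinetochore gene, at 0.34. In TI 5 these genes were at 0.23 and 0.27, below the limit of a gain. The other 6 tumours were between 0.0056 and 0.034 at both genes, and none of the 12 listed 1q genes on Chr 1 passed the test, beside 6.35% of all genes called higher, a share at which so short a list gives few calls. None of the 4 listed 1q genes on Chr 3 passed it either, which at this share says little about them.

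Other upward changes over 1 Mb on Chr 2, 10, 14 and 18 were each found in 1 tumour. TI 5 held a gain of 10.7 Mb on Chr 2 (0.39) within a partial shift that ended at 91.96 Mb, and a partial shift over 96.4% of Chr 18. TI 4 held a partial shift over 90.9% of Chr 10, and TI 6 over 90.1% of Chr 14. TI 3 held a gain of 1.42 Mb on distal Chr 2 at 1.47, or 5.54 copies, the highest copy number of any gained region over 1 Mb in TI. Its proximal boundary lay within 20 kb of Tshz2, a zinc finger gene.

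Losses were less recurrent than gains. Of 20621 protein-coding genes, 338 (1.64%) were lost in at least 2 tumours, and 297 of these lay on Chr 4. The 1p36 counterpart on distal Chr 4 was lost in TI 4 from 138.16 Mb and in TI 6 from 89.18 Mb, in both up to 156.72 Mb with gaps of under 1 Mb. The lost regions were 7.48 and 10.7 Mb in TI 4, and 19.6, 36.1 and 10.7 Mb in TI 6. At Chd5, a chromatin remodeller gene and tumour suppressor candidate of 1p36 (chr4:152423077-152474651), the log2 ratio was -0.997 in TI 4 and -0.94 in TI 6. It was -0.24 in TI 3, between -0.075 and -0.032 in TI 1, 5 and 7, and 0.0076 and 0.0021 in TI 2 and TI 8. The glands were between 0.0056 and 0.015, so that 7 tumours lay below all glands. The medians differed by -0.077 (exact permutation test, adjusted p = 0.0186), which missed the minimum difference of 0.1.

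Of 15 listed 1p36 genes, 11 were lost in 2 tumours, and the other 4, among them Arid1a, a subunit of the SWI/SNF remodelling complex, were lost in TI 6 only. The background was 1.64% of all genes lost in at least 2 tumours. None of the 15 was called lower by the test, which called 0.0097% of all genes lower. The boundary of the TI 6 loss at 89.18 Mb lay within 20 kb of Cdkn2a, the gene of the cell cycle inhibitors p16 and p19ARF. Cdkn2a itself was on the lost side, with -0.87 in TI 6 and -0.34 in TI 3. In the other 6 tumours it ranged from -0.075 to 0.013.

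Chr 9, the main counterpart of 11q, was shifted downward in most tumours but mostly short of a loss. Its means were -0.15, -0.067, -0.36, -0.33, -0.037, 0.015, -0.31 and -0.15 in TI 1 to 8, and 0.012 to 0.014 in the glands. Thus 7 tumours lay below all glands and TI 6 above them. The median difference of -0.16 did not pass (exact permutation test, adjusted p over 19 autosomes = 0.0561). Without TI 6, the autosome and 122 of 125 of its windows were called lower. Losses of at least 10 Mb on Chr 9 occurred in TI 3 only, with 15.2 Mb at -0.63 next to the centromere and 25.8 Mb at -0.45 further distal.

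Atm, the DNA damage kinase gene (chr9:53348097-53448236), had ratios of -0.15, -0.049, -0.26, -0.34, -0.038, 0.015, -0.30 and -0.095 in TI 1 to 8. It was partially shifted in 4 tumours and lost in none. Chek1, a checkpoint kinase, and Cadm1, a cell adhesion molecule, were likewise shifted in 4 tumours each. None of the 15 listed genes passed the test, beside 0.0097% of all genes called lower, so that the count does not set the list apart. The median difference over the list was -0.14, beside -0.0052 over all genes. In TI 3, 4 genes of the proximal end were lost, and 9.24% of all genes were lost in at least 1 tumour. The 11q genes on Chr 7 gave a median difference of -0.0065. There, Dlg2, a synaptic scaffold gene, stayed between -0.034 and 0.029 in TI, and Ccnd1, the cyclin D1 gene, exceeded 0.1 only in TI 3 (0.27), where the end of Chr 7 from 143.56 Mb was shifted.

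The levels of downward shifts depended on which deposited column was read. On Chr 9 the mean column gave -0.31, -0.22, -0.42, -0.42, -0.21, 0.036, -0.41 and -0.32 in TI 1 to 8, lower than the median column in all tumours but TI 6. Over 34 TI segments of at least 10 Mb with a median between -0.1 and -0.03, the median of the median column was -0.058 and that of the mean column -0.24. In AGM, the 144 segments of this length gave 0.013 and 0.032. With the mean column, Chr 4 and Chr 19 were called lower in TI (exact permutation test, adjusted p = 0.00492 for both), and 103 windows of Chr 4 and 59 of Chr 19 were called lower.

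Other long losses were each found in 1 tumour. TI 7 had lost 63.1 Mb of distal Chr 14 (chr14:62080001-125139656) at -0.68, with the cell cycle regulator gene Rb1 inside it, and 11 Mb of Chr 16 at -0.52. The rest of Chr 14 was partially shifted downward. TI 7 also held partial downward shifts over 96.2% of Chr 15, 95.1% of Chr 19 and 85.4% of Chr 16. TI 3 shared the shifts of Chr 16 (96.6%) and Chr 19 (94.9%). TI 1 lost the last 7.38 Mb of Chr 16 at -0.98.

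MicroRNA genes of these chromosomes were read as well, chosen after the values were seen. They are shown because they lay on chromosomes altered in TI, and because Mir34a and Mir34b, which share a seed and thus target sites, lay on different ones. Mature sequences are from RefSeq (GRCm38.p6 table), positions from GENCODE M39 (GRCm39), and capitals mark the seed, bases 2 to 8.
miR-34a-5p: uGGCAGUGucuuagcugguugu
miR-34b-5p: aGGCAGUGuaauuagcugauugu
miR-17-5p: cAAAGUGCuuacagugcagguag
miR-20a-5p: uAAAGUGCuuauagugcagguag
miR-10a-5p: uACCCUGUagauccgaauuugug
miR-100-5p: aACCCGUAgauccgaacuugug
miR-125b-5p: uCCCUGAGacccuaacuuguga

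Mir34a, a p53 target with known tumour suppressor function, lies in the 1p36 counterpart (chr4:150152911-150153012) and was lost in TI 4 (-0.997) and TI 6 (-0.94). Mir34b has the same seed GGCAGUG and lies in the 11q counterpart (chr9:51014862-51014945). It was lost in 0 tumours but was at -0.15, -0.26, -0.34 and -0.30 in TI 1, 3, 4 and 7. Of these 4 tumours, TI 3 (-0.24 at Mir34a) and TI 4 were below -0.1 at both genes. Mir17 and Mir20a of the oncogenic miR-17-92 cluster share the seed AAAGUGC and lie within 1 segment of Chr 14, lost in TI 7 (-0.68) and partially raised in TI 6 (0.18). Mir10a, within the Hoxb cluster on Chr 11, was gained in the same 7 tumours as Igf2bp1. Mir100 and Mir125b-1, which are neighbours on Chr 9, were each at or below -0.1 in 4 tumours.

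Of the 19 autosomes, Chr 11 and Chr 12 were called higher in TI and none lower. For Chr 11 the median difference was 0.23, with all 40 pairs in favour of TI. TI 6 was nearest to the glands, at 0.033 against at most 0.0145. With a length-weighted median in place of the mean, Chr 11 was not called, since its gain covered under 50% of the chromosome in all tumours but TI 5 and TI 8. Chr 4, 5, 15 and 19 were below all glands in all 8 tumours with an adjusted p of 0.00492 (exact permutation test), but their medians differed by only -0.079, -0.0062, -0.013 and -0.031. Chr 17 (median difference 0.14) and Chr 9 both had an adjusted p of 0.0561. Chr 6 had TI values on both sides of the glands, with 4 tumours over 0.1 and TI 8 at -0.16 (adjusted p = 0.416, exact permutation test).

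**Figure D4:**
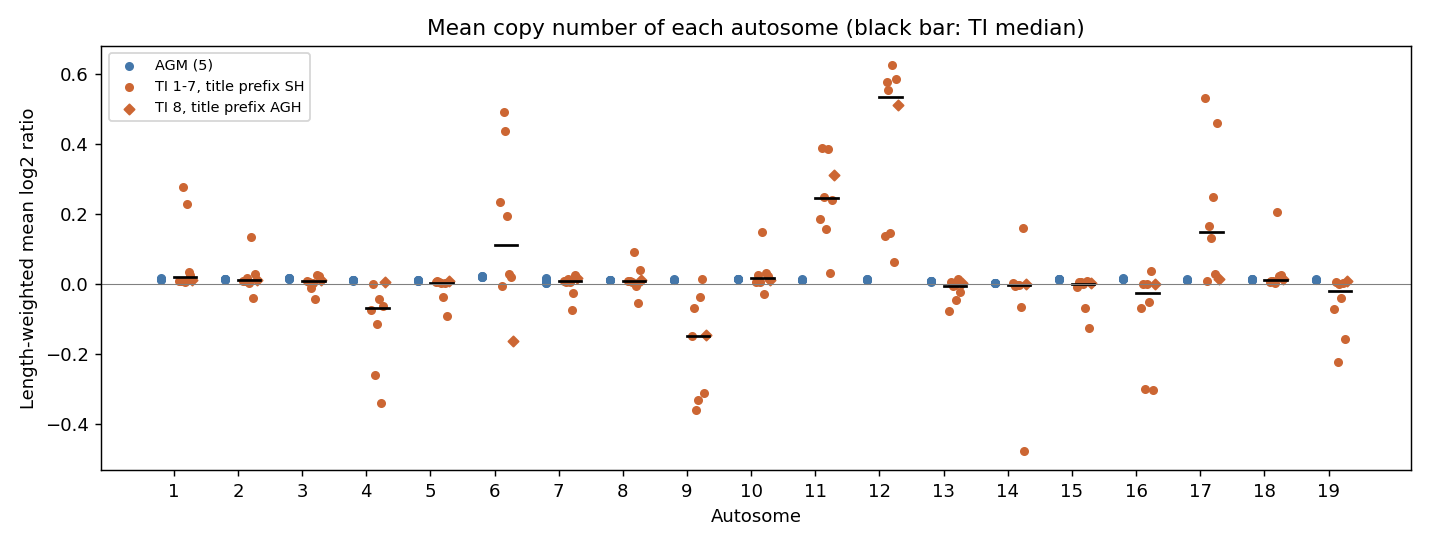
Length-weighted mean log2 ratio to wildtype AG of each autosome in 5 AGM glands (blue), TI 1 to 7 (orange circles) and TI 8 (orange diamond); black bars are TI medians. AGM points lie between 0.0022 and 0.023 on every autosome, while TI points spread upward on Chr 11, 12 and 17 and downward on Chr 4 and 9.

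Each tumour carried its own set of changes. TI 2 had the fewest, with the gains of distal Chr 11 and Chr 12 and 1 breakpoint between segments of at least 1 Mb. TI 6 carried no gain of at least 10 Mb, and its changes over 10% of a chromosome were the loss and an upward shift on Chr 4, the upward shift of Chr 14 and a downward shift of 22.5% of Chr 8. TI 3 had 33 such breakpoints, more than any other tumour, with stepwise levels along Chr 1, 4, 9 and 17. TI 4 and TI 1, which lacked a full gain of Chr 12, had a gain of Chr 6 and of Chr 17, respectively. In all, 78 of these breakpoints were found in TI and 2 in AGM, the latter both in AGM 3 at the ends of a stretch on Chr 4.

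Of 339 TI breakpoints, 207 lay within 1 Mb of those of another tumour, at 34 sites, of which 11 also held breakpoints of AGM. Of the 78 between segments of at least 1 Mb, 10 did so, at 5 sites. Of the sites without AGM, 12 lay wholly at a chromosome end, within the first 3.6 Mb or the last 1 Mb. There a step can come from a change over the whole chromosome. The other 11 sites reached further inside. A site at 118.38 to 120.00 Mb of Chr 12, did so through TI 8 alone, since TI 2, 3, 5 and 7 had their breakpoint at 120.00 Mb. Sites of 4 tumours at 26.98 to 27.20 Mb of Chr 2 around Dbh, and of TI 3, 7 and 8 near the end of Chr 9, bordered regions described here. Others were shared by TI 4 and TI 6 at 145.64 to 146.96 Mb of Chr 4, and by TI 1 and TI 3 at 35.60 to 37.04 Mb of Chr 17. Among the 5 sites between long segments, at 39.78 to 40.18 Mb of Chr 4 breakpoints of TI 3 and TI 6 met, and at 29.18 to 29.24 Mb of Chr 16 those of TI 3 and TI 7. At 46.22 to 46.78 Mb of Chr 6 those of TI 3 and TI 5 met within 20 kb of Cntnap2, a very long gene of a neuronal adhesion protein. The remaining pair of sites, shared by TI 4 and TI 7 on Chr 4 near 41.62 and 42.86 Mb, bordered the stretch that was also altered in AGM.

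Regions shorter than 5 Mb recurred with one direction in 2 or more tumours at 18 places, and 12 were also called in AGM. The most frequent, a gain on Chr 7 (chr7:137560001-138180000) over Tcerg1l, was present in 7 tumours and all 5 glands, at 0.84 to 1.01 and 0.86 to 1.05. Of the regions called in every gland, a gain on Chr 13 (chr13:65660001-65860000) was called in 0 tumours. A loss on Chr 13 (chr13:65820001-66640000) was called in 2 tumours, and a loss on Chr 5 (chr5:110080001-110180000) in 3. The 4 losses on Chr 14 between chr14:25860001-26040000 and chr14:53040001-53600000 were each called in 4 or 5 tumours. A loss on Chr 4 (chr4:41620001-42860000) was called in 3 tumours and 2 glands, and the other 3 glands held the same stretch at -0.392, -0.359 and -0.363, just short of the limit. On Chr 7, losses over a cluster of Mrgpr genes, which encode receptors of sensory neurons (chr7:46860001-47820000), at Snrpn (chr7:59780001-60000000) and at chr7:60140001-60500000 were called in TI 5 and TI 6 and in 2 or 3 glands.

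Short regions of TI that were called in no gland included a loss of 80 kb on Chr 10 (chr10:89720001-89800000) at Anks1b in TI 2, 3 and 6. Others were losses on Chr 15 (chr15:49660001-50300000) in TI 1 and 6 and on Chr 7 (chr7:26560001-26660000) at Cyp2a22 in TI 4 and 7. At the distal end of Chr 9, TI 3, 7 and 8 had overlapping losses within chr9:121760001-124260000.

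The gene of the Cre driver stood out. Dbh, the enzyme that makes noradrenaline from dopamine (chr2:27055245-27074212), had ratios of 0.89, 0.90, 0.83 and 1.16 in TI 1, 4, 5 and 7, or 3.55 to 4.46 copies. In TI 2, 3, 6 and 8 it was between 0.0070 and 0.013, and in AGM between 0.0079 and 0.015. In TI 1, 4 and 7 this gain was a region of its own within chr2:27020001-27160000, holding Fam163b, Dbh, Sardh and Vav2, and in TI 5 it lay at the edge of the 10.7 Mb gain. TI 1, 4, 5 and 7 thus lay far above the glands and the other tumours at about their level. The gene did not pass the test (exact permutation test, adjusted p = 0.855). All 13 animals are labelled CRE-positive.

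Of 14 other listed neuroblastoma genes, 0 were called, beside 6.35% of all genes higher and 0.0097% lower, a share at which 14 genes give few calls. Braf, a kinase gene on Chr 6, was gained in 3 tumours, as were 8.94% of all genes in at least 3. Myc reached 0.019 at most and was at -0.13 in TI 7. The medians of the arm lists showed the 17q genes gained in 7 tumours and the 2p genes of Chr 12 in 5. The 1p36 list was lost in 2 tumours, and the 11q list of Chr 9 reached the limit of a loss in none.

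**Figure D5:**
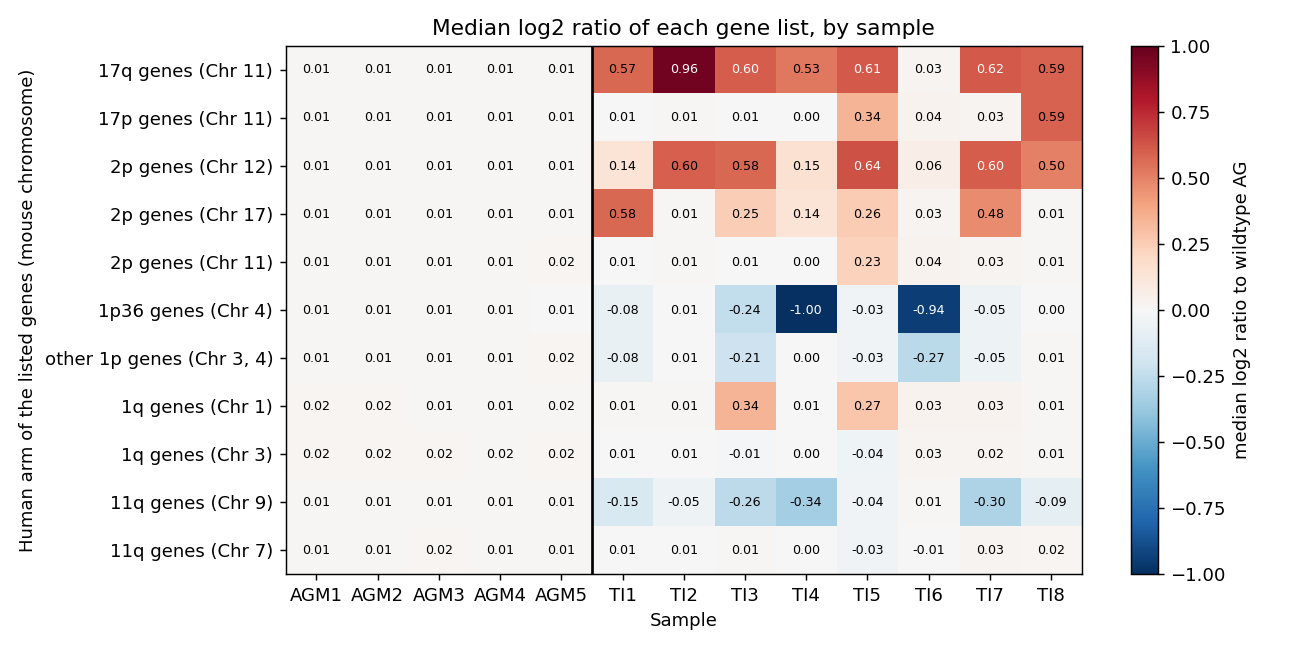
Median log2 ratio to wildtype AG of the listed genes of each human arm, by mouse chromosome, in 5 AGM glands and 8 TI tumours; each cell prints its value. All AGM cells are between 0.00558 and 0.0186, and TI cells reach 0.96 for the 17q genes in TI 2 and -0.997 for the 1p36 genes in TI 4.

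TI 8 was the only tumour with the title prefix of the glands, and its comparison with them is given as values with no test. Of 19 autosomes, 4 differed from the AGM median by at least 0.1. Chr 11 was at 0.31 and Chr 12 at 0.51, while Chr 6 was at -0.16 and Chr 9 at -0.15. On the other 15 autosomes TI 8 was between 0.00024 and 0.017. TI 8 held the gains of distal Chr 11 and Chr 12 and a downward shift of Chr 9, and an effect of the prefix was not tested.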

How the data were processed

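Segments of 13 mouse samples were analysed. Per the labels and the methods of the study, the authors trimmed reads with cutadapt 2.8, aligned them to mm39 with HISAT2 2.1.0, used SAMtools 1.10 and called copy number with cn.MOPS against 3 wildtype adrenal glands. The deposited values are a median and a mean log2 ratio per segment. Segment starts fell on a 20 kb grid. The study's methods state a low coverage, and the files give no depth per library, so no interval that needs it is given, and the spread between AGM glands is the measure of precision.

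All 19 autosome lengths equalled those of GRCm39, and genes were placed by the GENCODE M39 annotation at their midpoint. The median column was used. The rank sum was tested by exact permutation (two-sided) over all 1287 assignments, in which p cannot fall below 0.00155, with Benjamini-Hochberg adjustment over 4 measures, 2472 windows, 19 autosomes or 20621 genes. A call needed an adjusted p under 0.05 and medians 0.1 apart. With 13 samples, p-values measure the spread between these animals only. In simulated windows, where every TI sample got the same shift on independent noise, 200 of 200 changed ones were recovered and 0 others called. The real tumours differed from one another, so that this checks the procedure and not its power in these data.

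Genes were named by list membership and a fixed set of 21 neuroblastoma genes, and regions by length (at least 10 Mb) or recurrence. Members, lists and tests were chosen with earlier results of these data known, and human arms were assigned to lists from general knowledge. A focal region and some listed genes enter the counts and are not reported here. Alternatives were the mean column, a difference of means, other thresholds, sizes and windows, a replicate block, and leaving out each sample. Tables were handled with pandas 2.3.3 in Python 3.11.15, tests used scipy 1.17.1 and numpy 2.4.6, and plots matplotlib 3.10.9. An added alternative with 5 tumours was chosen after seeing the data.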

Additional observations from a re-analysis of the deposited data

Results flagged for a closer look

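Single samples that stood apart from their group were found in 15 of 88 groups of values tested, 12 in TI and 3 in AGM. The rule flags about 1 in 20 independent groups by chance. These groups overlap, since genes share segments with one another and with their autosome, so that the count cannot be set against that share. In TI, 5 of these were autosome means. TI 5 stood apart on Chr 2 (0.135) and Chr 18 (0.207), TI 4 on Chr 10 (0.149), and TI 7 on Chr 5 (-0.091) and Chr 14 (-0.477). At the genes, TI 6 stood below the other tumours at Igf2bp1, Birc5 and Top2a (0.0276, next value 0.529, all in 1 segment), at Arid1a (-0.907) and at Cdkn2a (-0.871). TI 5 stood above the others at Xpo1 (0.231), and TI 3 at Ccnd1 (0.265). In AGM, gland 5 stood slightly below the others at Chd5 and Arid1a (0.00558, next value 0.0128) and at Dbh (0.00789), which are differences of under 0.01 on the log2 scale.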

How the results depend on the processing

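No result reversed under the alternatives tried. Gained and partially shifted sequence kept their call in each alternative except the replicate block, whose smallest possible p is 0.0625. With this block over 5 same-numbered pairs, the median differences were 181 Mb gained, 7.62 Mb lost, 451 Mb shifted and 19 breakpoints, none of which passed. Same-numbered samples come from different animals, and the deviations of their autosomes from the group means correlated between -0.389 and 0.175, so that the numbers do not pair them. Breakpoints differed by 2 at a step of 0.3. Leaving out each sample in turn gave differences of 180 to 181 Mb gained, 17.4 to 26.8 Mb lost, 384 to 428 Mb shifted and 7 to 11 breakpoints. It gave 154 to 242 windows higher and 1 to 123 lower, 2 to 3 autosomes higher and 0 to 1 lower, and 1309 to 2345 genes higher and 2 to 1211 lower. The most windows and genes were higher without TI 2 and lower without TI 6.

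A difference of means called 37 windows and 670 genes higher (35 windows on Chr 11 and 0 on Chr 12) and 0 windows and 0 genes lower. With the mean column, the median differences were 69.3 Mb lost, 627 Mb shifted and 14 breakpoints, against 22.1 Mb, 406 Mb and 9 with the median column. The mean column called 203 windows, 2 autosomes and 1889 genes lower. Without a size limit, 397 windows, 4 autosomes and 2340 genes were lower. Windows of 5 Mb gave 31 higher and 0 lower, of fewer windows in all, and a length-weighted median gave 1 autosome higher, Chr 12. With only the 5 IGF2BP1 +/+ tumours outside the adrenal gland and with prefix SH, an alternative chosen after seeing the data, 123 windows, 1 autosome and 1217 genes were lower, and differences of 17.4 Mb lost and 11 breakpoints no longer passed. Downward changes thus depended on the column and on TI 6. The cause was not tested.

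Shallow sequencing limits short regions and levels between whole copy numbers, and the study's methods state a low coverage per sample without giving it for each library.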
